A study of Mus musculus with 21 samples.

Results

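The 10 genes described here belong to the brush border cytoskeleton and the simple epithelial keratins, and were followed in sorted intestinal Lgr5 cells, the stem cells of the crypt base. They are the actin-binding genes Vil1 (ENSMUSG00000026175.6), Espn (ENSMUSG00000028943.10), Pls1 (ENSMUSG00000049493.7) and Eps8 (ENSMUSG00000015766.8), the motor gene Myo1a (ENSMUSG00000025401.8) and the membrane linker gene Ezr (ENSMUSG00000052397.8). The keratin genes are Krt8 (ENSMUSG00000049382.9), Krt18 (ENSMUSG00000023043.6), Krt19 (ENSMUSG00000020911.8) and Krt20 (ENSMUSG00000035775.2). They were chosen by gene name among 37310 genes, and all 10 were among the 16050 genes abundant enough to be tested. RNA was sequenced from 21 libraries in 7 groups of 3, and the study asked how diet affects these cells. Every mouse carried Lgr5EGFPcre-ERT2, an allele that puts a green fluorescent protein and an inducible Cre recombinase under the Lgr5 gene, and was kept on purified food from weaning up to an age of 3 months. The diets were AIN76A (group AIN), NWD1 and NWD2, whose makeup no source used here states. NWD1Ca was NWD1 with calcium at 7 mg/g, NWD1VitD was NWD1 with vitamin D at 2.3 IU/g, and AINlowVitD was AIN with vitamin D at 0.11 IU/g, doses that the labels write per g of body weight. AIN_VdrKO mice ate AIN76A and carry the label of a vitamin D receptor (Vdr) knockout. The brightest Lgr5-GFP cells were sorted in bulk. NWD1Ca held only females, AIN_VdrKO held only males, and the other groups held both sexes.

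Microvilli of the gut epithelium stand on bundles of parallel actin filaments, which villin (Vil1), espin (Espn) and plastin 1 (Pls1) cross-link. EPS8 sits at the tips of the microvilli, myosin 1a ties the bundle to the side membrane, and ezrin links actin to membrane proteins. The keratins form the filaments of the terminal web and of the cell body, always as pairs of a type II chain, here keratin 8, and a type I chain, here keratin 18, 19 or 20. Brush border proteins and keratin 20 are abundant in differentiated enterocytes of the villus, keratin 18 is also high in tuft cells, and keratins 8 and 19 are present from the crypt upwards.

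Promoter windows were read from RefSeq sequences of the GRCm38.p6 build, 250 bases before to 50 bases after each annotated start, and 8 of 10 genes had a window. Eps8 and Krt19 had none. The windows of 4 genes are shown. Vil1 and Krt20 are shown because their RNA levels moved together between libraries, and Krt8 and Krt18, which lie next to each other on chromosome 15 with 0 protein-coding genes between them, because theirs did so less closely. The Vil1 window is chr1:74409134-74409433 on the plus strand, Krt20 is chr11:99438104-99438403 on the minus strand, Krt8 is chr15:102004293-102004592 on the minus strand, and Krt18 is chr15:102027966-102028265 on the plus strand. Capitals mark the motifs found.
Vil1: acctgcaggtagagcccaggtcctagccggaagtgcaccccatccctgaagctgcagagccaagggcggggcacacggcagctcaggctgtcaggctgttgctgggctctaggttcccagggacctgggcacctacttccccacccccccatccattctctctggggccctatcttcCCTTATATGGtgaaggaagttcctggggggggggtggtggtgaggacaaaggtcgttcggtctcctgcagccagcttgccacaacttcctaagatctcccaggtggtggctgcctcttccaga
Krt20: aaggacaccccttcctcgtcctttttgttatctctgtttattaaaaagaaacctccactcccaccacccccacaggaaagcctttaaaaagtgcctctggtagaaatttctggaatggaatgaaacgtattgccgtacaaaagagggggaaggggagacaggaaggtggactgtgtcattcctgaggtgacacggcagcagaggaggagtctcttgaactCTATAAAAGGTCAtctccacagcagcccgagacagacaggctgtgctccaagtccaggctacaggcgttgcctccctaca
Krt8: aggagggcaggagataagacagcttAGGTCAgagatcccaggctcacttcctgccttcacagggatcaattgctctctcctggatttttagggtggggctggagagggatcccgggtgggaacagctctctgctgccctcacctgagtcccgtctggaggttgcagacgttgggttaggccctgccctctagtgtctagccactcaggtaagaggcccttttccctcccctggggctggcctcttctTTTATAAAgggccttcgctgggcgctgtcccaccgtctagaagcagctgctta
Krt18: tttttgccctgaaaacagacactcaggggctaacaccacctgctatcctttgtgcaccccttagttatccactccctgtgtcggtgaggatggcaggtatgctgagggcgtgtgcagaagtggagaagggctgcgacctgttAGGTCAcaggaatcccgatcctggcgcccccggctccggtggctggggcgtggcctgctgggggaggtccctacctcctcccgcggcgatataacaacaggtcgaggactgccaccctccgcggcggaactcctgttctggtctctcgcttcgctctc
The letters were searched on both strands. Vil1 held a CArG box, the motif of serum response factor, from 73 to 64 bases before its start, a motif present in 1.63% of 32851 windows of the same length. Krt20 held TATAAA from 29 to 24 bases before its start, followed directly by AGGTCA, a half-site of nuclear receptors, and TTTATNG on the other strand overlapping the TATAAA. Krt8 and Krt18 each held 1 AGGTCA as well, and Krt8 also TATAAA on both strands across its annotated start. TATAAA was in 13.6%, AGGTCA in 16.3% and TTTATNG in 10.9% of all windows. The DR3 vitamin D response element was in 0.0396% of all windows and in none of those of the 8 genes. These matches describe letters only.

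Gene counts ranged from 19889795 to 115435120 a library. The libraries formed 2 sets on the first principal component, which held 43.9% of the variance. AIN, NWD1 and NWD2 lay between -104.3 and -38.62, and NWD1Ca, NWD1VitD and AINlowVitD between 71.21 and 79.24, with AIN_VdrKO between the sets. The share of counts in the top 10 genes was 5.332% to 8.37% in the first set and 14.13% to 20.45% in the second. No batch is labelled for these sets, and diet and set cannot be told apart in comparisons across them. Spike-in RNA made up 24.69% and 20.44% of NWD1 1 and NWD1 2. The summed level of 13 Lgr5 stem cell markers ranged from 1220 to 11400 CPM, read counts scaled to library size, and all 13 were detected in every group. Markers of other epithelial cells were present too. Their sums ranged from 2370 to 74100 CPM for 20 enterocyte markers, 8220 to 95200 CPM for 9 goblet and 3090 to 72100 CPM for 9 Paneth cell markers. Those of 9 enteroendocrine markers ranged from 417 to 12300 CPM, and of 9 tuft cell markers from 371 to 3770 CPM. Of 9 fibroblast and muscle markers the sum was at most 0.363 CPM outside AIN_VdrKO and 1.41 to 3.22 CPM within it. Vdr had 297, 481.5 and 246.6 CPM in the libraries labelled AIN_VdrKO and 338.2, 373.2 and 746.4 CPM in AIN. No source used here states the deleted part of Vdr or the cells that lack it, so this gene-level count does not check the label.

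Per length, Krt8, Krt18 and Krt19 were by far the most abundant. TPM values also divide by gene length, and their medians over the 21 libraries were 2360 for Krt8, 1097 for Krt18 and 1064 for Krt19. Krt20 followed at 215 TPM, close to Vil1 at 197 TPM, Pls1 at 149 TPM, Myo1a at 126 TPM and Ezr at 113 TPM. Eps8 at 18.6 TPM and Espn at 15.6 TPM were the least abundant. Neighbours in this order from Krt20 to Ezr, and the pairs Krt18 with Krt19 and Eps8 with Espn, overlapped over most of their ranges. Krt8 had the narrowest range, 6.5-fold between its lowest and highest library, and Krt20 the widest, 16.2-fold, in TPM. In CPM, Myo1a had the widest range, 10.3-fold, and Krt20 ranged 8.65-fold. Reads of Krt8 and Krt18 are uncertain to the extent that the many processed copies of these genes in the genome share their sequence.

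**Figure D1:**
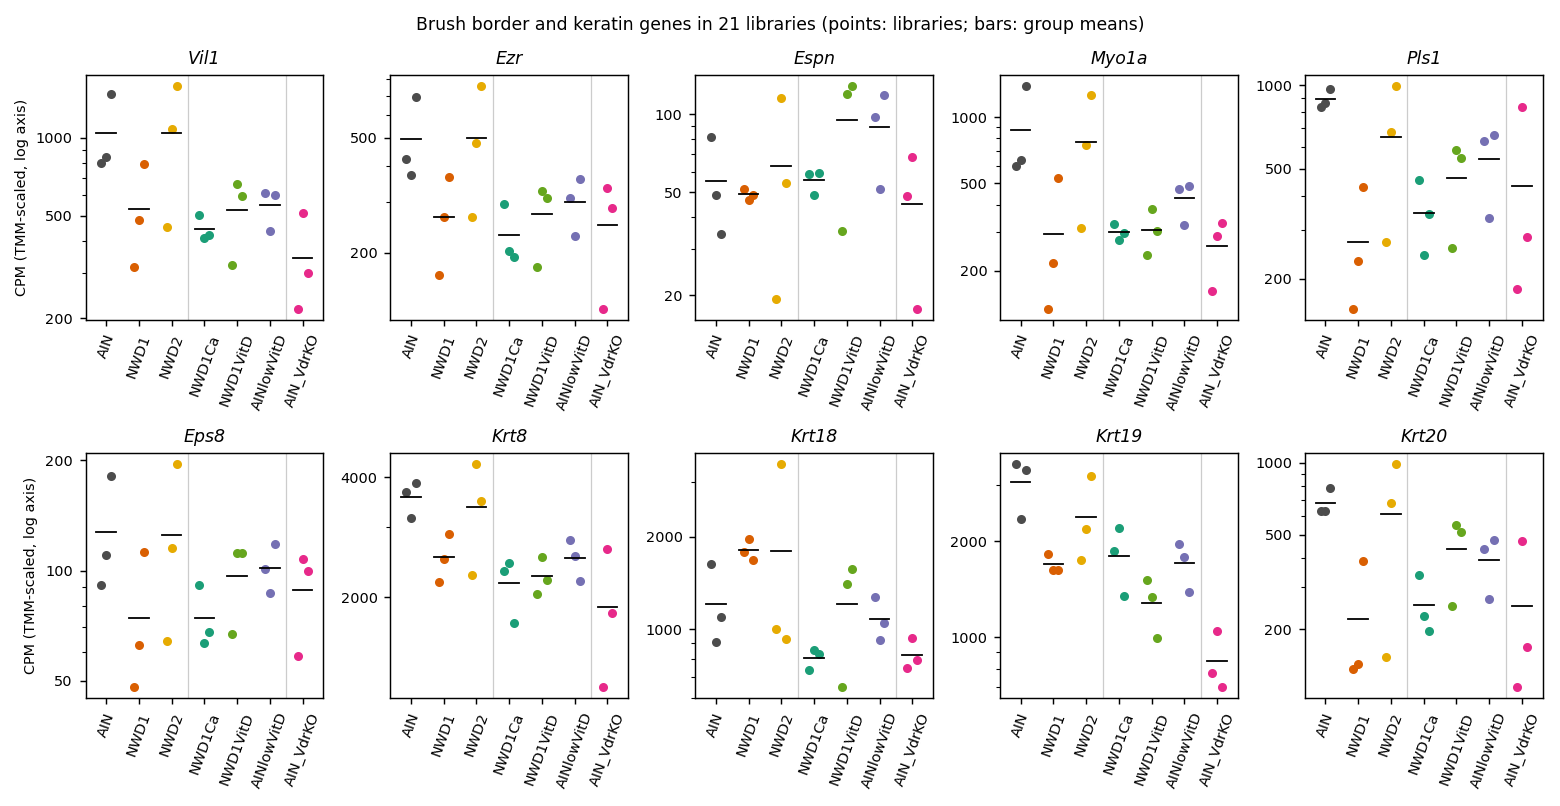
CPM of the 10 genes in the 21 libraries on log axes, 1 panel a gene, with points for libraries and bars for means of 3; grey lines part the first set (AIN, NWD1, NWD2), the second set (NWD1Ca, NWD1VitD, AINlowVitD) and AIN_VdrKO. Krt19 is lowest in AIN_VdrKO, between 701 and 1050 CPM, and 1 NWD2 library stands at 3438 CPM for Krt18.

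Krt19, a type I keratin, had the largest fitted change of the 10 genes against AIN. It stood at 3482, 2351 and 3338 CPM in the AIN libraries and at 775, 1050 and 701 CPM in AIN_VdrKO. The groups did not overlap, and the highest AIN_VdrKO library had less than the lowest AIN library. Krt19 fell 3.34-fold, with a log2 fold change of -1.74 ± 0.33 (SE, 95% interval -2.43 to -1.05) and an adjusted p of 0.0023 in edgeR's quasi-likelihood test. It was called in all 17 alternative analyses, at -2.06 to -1.49. The fit at -2.06 kept AIN 3 as the only AIN library. In AINlowVitD the 3 libraries stood at 1959, 1790 and 1388 CPM, again all below AIN, and Krt19 fell 1.81-fold (log2 fold change -0.85 ± 0.30, adjusted p = 0.0388). That call was lost in 8 of 17 alternatives, among them leaving out AIN 1 (-0.63), AIN 3 (-0.69) or any 1 of the AINlowVitD libraries (-0.93, -0.87 and -0.76). NWD1 had 1825, 1625 and 1628 CPM, a tight group below every AIN library, and its log2 fold change of -0.79 ± 0.31 did not pass (adjusted p = 0.216). NWD1Ca, at most 2198 CPM, and NWD1VitD, at most 1517 CPM, were below every AIN library too. Between AIN_VdrKO and AINlowVitD the log2 fold change was -0.89 ± 0.33 with an adjusted p of 0.151. On log2(TPM + 1) the same difference was 0.02, where the median of all genes shifted by 0.74 relative to the edgeR fit.

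Villin, a bundling protein of microvilli, had 801, 841 and 1477 CPM in AIN. In AIN_VdrKO Vil1 had 218, 513 and 300 CPM, and the groups did not overlap. Vil1 fell 2.72-fold (log2 fold change -1.45 ± 0.45, adjusted p = 0.0421). Myo1a, the brush border motor, had 599.8, 637 and 1389 CPM in AIN and 162, 289 and 331 CPM in AIN_VdrKO. It fell as well (log2 fold change -1.58 ± 0.50, adjusted p = 0.0428), and AIN 3 was the high library for both genes. Without AIN 3 neither call held, at -0.66 for Vil1 (adjusted p = 0.511) and -0.48 for Myo1a (adjusted p = 0.669). AIN 3 was the only male library of AIN, and AIN_VdrKO held only males. Leaving AIN 3 out thus set females of AIN against males of AIN_VdrKO. Vil1 was also lost without AIN_VdrKO 1 (-1.20) or AIN_VdrKO 3 (-1.36), and Myo1a without any 1 of the AIN_VdrKO libraries (-1.33, -1.66 and -1.79). Of 17 alternative analyses the Vil1 call was lost in 6 and the Myo1a call in 8, both with limma and with only the 2 groups compared, and Myo1a also with an offset for gene length.

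In AIN_VdrKO against AIN, then, 3 of the 10 genes fell, where 5.09% of the 16050 genes did, and none rose (7.44% of all genes did). All 10 fitted values were negative, with a median of -0.86 against -0.01 over all genes tested. The groups did not overlap in CPM for 7 of the 10, all lower, against 14.9% of genes lower in this way. The 7 values that did not pass ran from -0.24 ± 0.63 for Espn to -1.15 ± 0.59 for Krt20. Krt8 stood at 3668, 3159 and 3867 CPM in AIN and 1193, 2641 and 1829 CPM in AIN_VdrKO, no overlap, with a log2 fold change of -0.83 ± 0.34 (adjusted p = 0.12). Ezr was at -0.89 ± 0.43, Pls1 at -0.79 ± 0.55, Krt18 at -0.63 ± 0.47 and Eps8 at -0.40 ± 0.40. DESeq2 called 4 lower (8.42% of genes lower), and limma on log2(TPM + 1) called Krt19 alone (4.41%). The sum of 20 enterocyte markers was 19100 to 25100 CPM in AIN and 9210 to 17600 CPM in AIN_VdrKO, with 1 of 20 lower and a median log2 fold change of -0.87, and 4 of 13 stem cell markers were higher. The sum of 9 Paneth cell markers was 4610 to 6560 CPM in AIN and 8310 to 35700 CPM in AIN_VdrKO (median log2 fold change 1.49, 1 of 9 higher), and the tuft cell markers had a median of -0.77 with 0 of 9 called. Mitochondrial rRNA took 0.2335% to 0.9008% of counts in AIN and 1.379% to 2.804% in AIN_VdrKO, with no overlap. AIN_VdrKO also stood apart from AIN on the first principal component, at -21.89 to 43.81 against -97.64 to -38.62, and in the share of the top 10 genes, 8.617% to 13.51% against 5.776% to 8.37%. AIN 1, AIN 2 and NWD1 1 lay nearer to 0 than the rest of the first set. Without these 3 libraries AIN was left with AIN 3 alone, the high library for Vil1 and Myo1a. The values were then -2.06 for Krt19, -2.20 for Vil1, -2.50 for Myo1a and -1.57 for Ezr, and they rest on that library. The part of these differences in the results was not tested. In bulk libraries fewer cells of a type and less RNA per cell cannot be told apart.

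**Figure D2:**
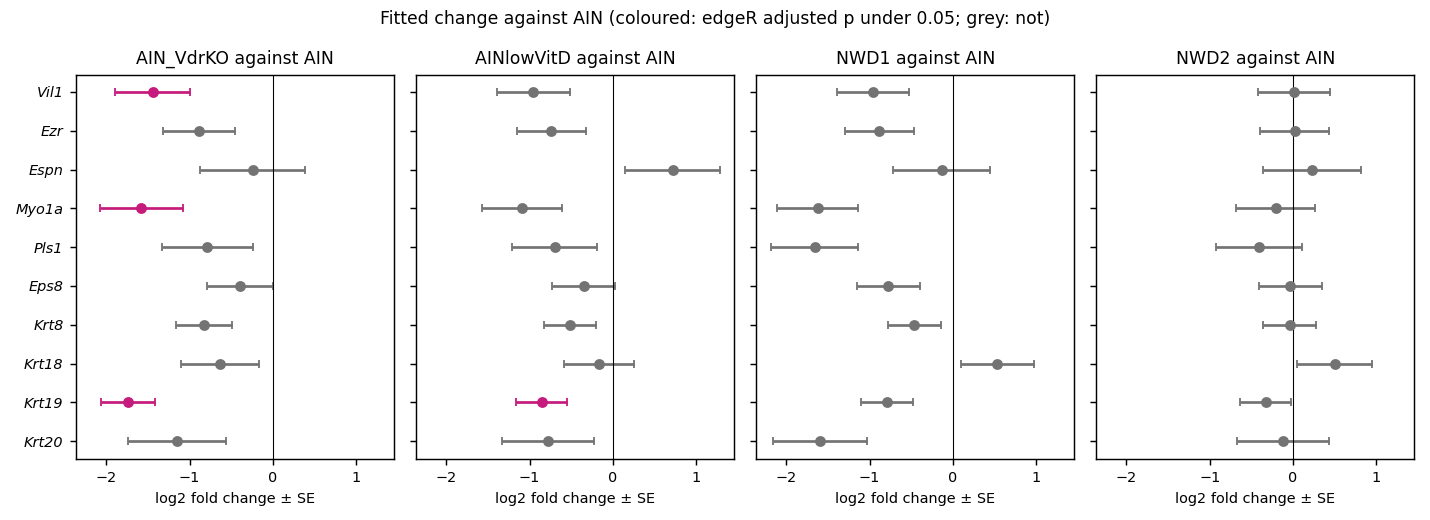
Fitted log2 fold change and standard error of the 10 genes in 4 groups against the same AIN libraries, with the genes on the vertical axis; coloured points passed an adjusted p of 0.05 and grey points did not. Vil1, Myo1a and Krt19 passed in AIN_VdrKO and Krt19 in AINlowVitD, and the NWD2 values lie around 0.

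AINlowVitD against AIN, which asks what less vitamin D in the AIN diet does, showed 1 of 10 genes lower, Krt19, where 16.3% of all genes were lower. The median of the 10 was -0.72 against -0.10 over all genes. Values that did not pass were -1.09 ± 0.48 for Myo1a, -0.95 ± 0.43 for Vil1, -0.78 ± 0.55 for Krt20, -0.74 ± 0.41 for Ezr, -0.70 ± 0.51 for Pls1 and -0.52 ± 0.32 for Krt8. Espn alone was positive, at 0.72 ± 0.57, with Eps8 at -0.35 ± 0.38 and Krt18 at -0.17 ± 0.42. The CPM of 7 genes did not overlap and were lower, against 25.3% of all genes. The count depended on the scaling. limma on log2(TPM + 1), a scale that moved the median gene by -0.96, called 9 lower, every gene but Espn, against 45.9% of all genes, with a median of -1.90 for the 10 and -0.65 for all genes. AIN and AINlowVitD lie in different library sets. Enterocyte markers did not go the same way, with sums of 21700 to 74100 CPM in AINlowVitD and a median log2 fold change of 0.10. Goblet cell sums were 46500 to 65900 CPM against 15700 to 32300 CPM in AIN (2 of 9 higher), and enteroendocrine sums 6110 to 9820 CPM against 2160 to 2310 CPM (4 of 9 higher). Of 9 Paneth cell markers 4 were higher (15.1% of all genes), and of 9 cycling cell markers 4 were lower (16.3%). The part of these markers in the values was not tested. These comparisons share the AIN libraries.

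NWD1 against AIN lies within the first set. Plastin 1 had 836, 866 and 971 CPM in AIN and 156, 233 and 428 CPM in NWD1. Its groups were well apart, yet its log2 fold change of -1.66 ± 0.53 had an adjusted p of 0.121. Myo1a had 135, 217 and 530 CPM in NWD1, below all 3 AIN libraries (-1.62 ± 0.49, adjusted p = 0.103). Krt20, a keratin of mature enterocytes, had 627, 625 and 782 CPM in AIN and 136, 143 and 385.8 CPM in NWD1 (-1.59 ± 0.56, adjusted p = 0.167). NWD1 3 was the high NWD1 library in each of the 3 genes. It was also the only female library of NWD1 and had the lowest spike-in share of that group, 5.243%. Krt18 went the other way, with 1623, 911 and 1095 CPM in AIN and 1788, 1956 and 1677 CPM in NWD1 (0.53 ± 0.44, adjusted p = 0.619). The lowest NWD1 library was just above the highest AIN library. The tuft cell sum was 865 to 2350 CPM in NWD1 and 556 to 1160 CPM in AIN (median log2 fold change 0.81, 0 of 9 called), and its part in the Krt18 value was not tested. The other values were -0.96 ± 0.43 for Vil1, -0.88 ± 0.42 for Ezr, -0.77 ± 0.38 for Eps8, -0.46 ± 0.32 for Krt8 and -0.14 ± 0.58 for Espn.

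edgeR called 0 of the 10 genes in NWD1 against AIN, where 0.766% of all genes passed. An unadjusted p under 0.05 was reached by 6 genes, against 15.2% of all genes, and DESeq2 called 2 lower, Myo1a and Pls1, against 3.8% of genes lower by that tool. The CPM of 7 were lower without overlap, against 10.9% of all genes, and 1, Krt18, was higher without overlap, against 5.92%. On TPM, a scale that moved the median gene by 0.40, 1 was lower (4.43% of all genes) and 1 higher (15.5%) without overlap, and limma on log2(TPM + 1) called 0 (0.293% of all genes lower, 1.15% higher). Without NWD1 3, Myo1a passed. Leaving out NWD1 1 and NWD1 2, the libraries with many spike-in reads, left NWD1 3 alone in its group, so no count is given for that fit. The sum of 20 enterocyte markers was 2370 to 5700 CPM in NWD1 against 19100 to 25100 CPM in AIN, with a median log2 fold change of -2.31 and 2 of 20 called lower. The stem cell sum was 7360 to 10300 CPM against 2530 to 4660 CPM. The part of these cell types in the values was not tested.

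NWD2 spread widely. Its Myo1a was at 313, 746 and 1262 CPM, its Pls1 at 271, 677 and 997 CPM and its Krt20 at 152, 682 and 990 CPM. NWD2 1 sat within the range of NWD1 in all 3 genes, and NWD2 2 and NWD2 3 above that range. NWD2 3, the highest in all 3 genes, was the only female library of NWD2. NWD2 1 also had the lowest enterocyte marker sum of the group, 3570 CPM against 19800 and 27200 CPM, and the highest stem cell sum, 11400 CPM. Against AIN edgeR called 0 of 10, as of all genes (0%), and 0 of 10 had an unadjusted p under 0.05 (6.85% of all genes). DESeq2 called 0 of 10 (0.025% of genes lower), as did limma. The median log2 fold change was -0.04, from -0.41 to 0.50. Against NWD1 edgeR called 0 of 10 (0.00623% of all genes) and 5 had an unadjusted p under 0.05 (10.7% of all genes), all positive. They included Krt20 at 1.47 ± 0.56 (adjusted p = 0.324), Myo1a at 1.42 ± 0.48 (adjusted p = 0.253), Pls1 at 1.26 ± 0.52 (adjusted p = 0.38) and Vil1 at 0.97 ± 0.43 (adjusted p = 0.425). DESeq2 called 0 of 10 here too (1.72% of genes higher), as did limma (0.0374% higher).

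Calcium or vitamin D added to NWD1 was compared with NWD1 across the library sets. Krt18 had 737, 858 and 831 CPM in NWD1Ca, all below NWD1, at a log2 fold change of -1.08 ± 0.47 (adjusted p = 0.0846). It passed without the sex term, at -1.16 (adjusted p = 0.0327), a setting that called 39.5% of all genes. NWD1Ca held only females and NWD1 held 1 female and 2 males, so that fit cannot tell diet from sex. The sum of 9 tuft cell markers was 443 to 808 CPM in NWD1Ca and 865 to 2350 CPM in NWD1. Of the 9 markers 3 were lower (14.9% of all genes), with a median log2 fold change of -1.41. The part of the tuft cell markers in the Krt18 value was not tested. In NWD1VitD Krt18 had 650.4, 1407 and 1567 CPM (-0.57 ± 0.42, adjusted p = 0.292). Krt20 had 251, 547 and 512 CPM in NWD1VitD, against 136, 143 and 385.8 CPM in NWD1, which overlapped (1.06 ± 0.56, adjusted p = 0.138). NWD1VitD 1 was the low library of its group for both genes. edgeR called 0 of 10 in NWD1Ca against NWD1, where 30.5% of all genes passed, and 0 of 10 in NWD1VitD against NWD1, where 40.5% did. At an unadjusted p under 0.05 there were 1 (42.5% of all genes) and 0 (49.5%), and DESeq2 called 0 in both. That tool called 16.3% of genes lower and 19.1% higher in NWD1Ca, and 21.3% lower and 23.5% higher in NWD1VitD. limma on log2(TPM + 1) called 6 and 7 lower, against 51.5% and 60.3% of all genes, with all genes shifted by medians of -1.15 and -1.38. Enterocyte marker sums of 21400 to 41400 CPM in NWD1Ca and 30000 to 58300 CPM in NWD1VitD were all above those of NWD1. Of 20 markers 7 and 12 were higher, against 15.6% and 19.9% of all genes.

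NWD1VitD against NWD1Ca stays within the second set. edgeR called 0 of 10 genes (0% of all genes), 0 had an unadjusted p under 0.05 (2.32% of all genes), DESeq2 called 0 (0.00624% of genes lower and 0.0125% higher), and limma called 0. Krt20 was at 1.09 ± 0.60 and Krt19, with 1868, 2198 and 1343 CPM in NWD1Ca against 1517, 1342 and 994 CPM in NWD1VitD, at -0.36 ± 0.33, both with an adjusted p of 1. The intervals, -0.16 to 2.35 for Krt20 and -1.05 to 0.33 for Krt19, allow sizeable differences. AIN_VdrKO against AINlowVitD gave 0 of 10 calls in edgeR (3.07% of all genes) and 1 at an unadjusted p under 0.05 (20.2%). DESeq2 called 1 lower, Krt19 (5.31% of genes lower, 1.97% higher). limma on log2(TPM + 1) called 0, where 32.1% of all genes passed in either direction and 2.02% were lower. All 10 values were negative, from -0.96 ± 0.60 for Espn to -0.05, with a median of -0.42 against 0.13 over all genes. These signs depended on the scaling: with limma on log2(TPM + 1) 9 of the 10 values were positive, all but Espn, with a median of 0.46 against 0.63 over all genes.

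A library's scaling factor cancels in a ratio between genes of that library, and the length division multiplies a ratio by the same factor in every library. Krt18 stood to Krt19, both per length, at 0.618, 0.513 and 0.435 in AIN. The ratio was 1.3, 1.59 and 1.36 in NWD1 and 1.29, 1.18 and 1.5 in AIN_VdrKO, so that per length Krt18 was below Krt19 in every AIN library and above it in every NWD1 and AIN_VdrKO library. In CPM, which are not per length, Krt18 was below Krt19 in NWD1 1, AIN_VdrKO 1 and AIN_VdrKO 2 too. The means were 0.522 ± 0.0918 (SD, n = 3) in AIN, 1.42 ± 0.153 in NWD1 and 1.32 ± 0.163 in AIN_VdrKO. Neither group overlapped AIN; an exact permutation test of 3 against 3 libraries cannot go below 0.1. AINlowVitD, at 0.684 to 0.998, did not overlap AIN either. NWD1Ca lay at 0.518 to 0.82, while NWD2 (0.385 to 2.09) and NWD1VitD (0.568 to 2.09) covered nearly the whole range. As a share of type I keratin TPM, Krt19 made up 55.8% to 60.2% in AIN, 37.3% to 42.2% in NWD1, 36.6% to 41.2% in AIN_VdrKO and 43% to 54.7% in AINlowVitD. Krt18 made up 26.2% to 34.5%, 52.6% to 59.5%, 45.2% to 55% and 37.4% to 42.9% in the same order. The CPM differed in which gene stood apart. Krt18 was above AIN in NWD1 and below it in NWD1Ca. Krt19 was below AIN in NWD1, AIN_VdrKO and AINlowVitD, and also in NWD1Ca and NWD1VitD. In NWD2 it overlapped AIN. Krt18 in AIN_VdrKO (752, 935 and 795 CPM) overlapped AIN, as it did in AINlowVitD.

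**Figure D3:**
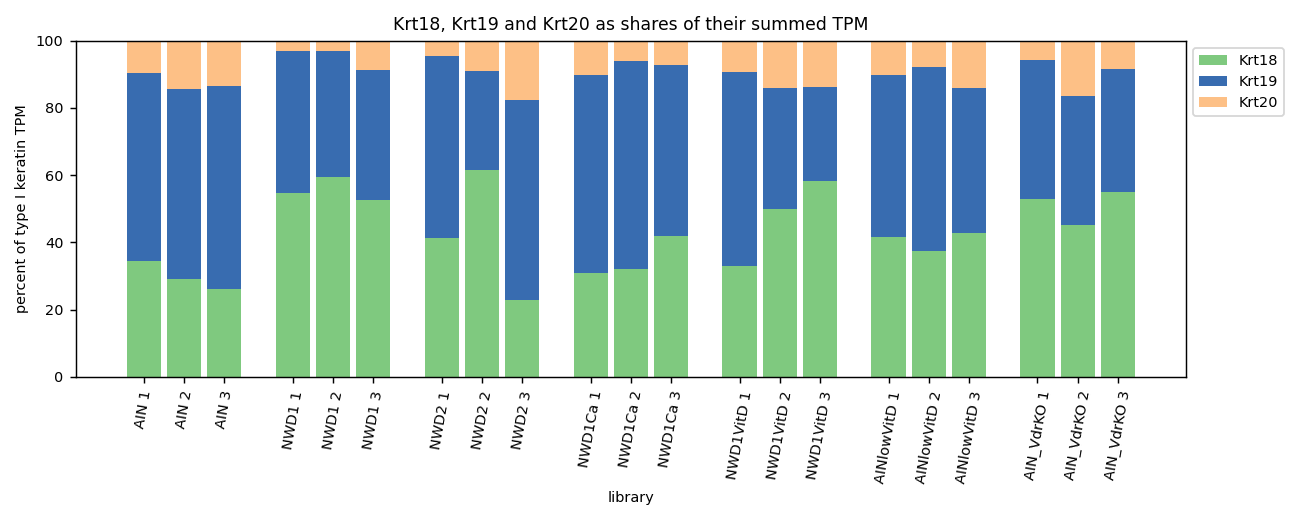
Stacked bars of Krt18, Krt19 and Krt20 as percent of their summed TPM in each of the 21 libraries, grouped by diet or genotype. The Krt19 share is at least 55.8% in the 3 AIN libraries and at most 42.2% in the 3 NWD1 and 3 AIN_VdrKO libraries. It is 43% to 54.7% in AINlowVitD, and the NWD2 and NWD1VitD libraries differ among themselves.

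The sum of type I keratins stayed nearer to keratin 8, their type II partner, at 1.01 to 1.93 times its TPM over the 21 libraries. Krt8 to Krt18 alone ran from 0.946 to 2.91, with 1.75 to 2.74 in AIN and 0.946 to 1.34 in NWD1. Ezr to Vil1, at 0.477 to 1.03, had the narrowest range of the ratios taken to Vil1, which were those of Ezr, Pls1, Myo1a and Espn, and lay between 0.477 and 0.647 outside AIN_VdrKO. Pls1 to Vil1 was 0.6 to 0.953 in AIN and 0.441 to 0.493 in NWD1. Myo1a to Vil1 was 0.785 to 0.986 in AIN and 0.447 to 0.702 in NWD1. Both ratios were thus lower in every NWD1 library than in any AIN library. NWD1 was not alone in lying below AIN. Myo1a to Vil1 was 0.687 to 0.739 in NWD1Ca and 0.533 to 0.77 in NWD1VitD, and Pls1 to Vil1 was 0.546 to 0.571 in NWD2. In both of these ratios the remaining groups overlapped AIN. Ezr to Vil1 was 0.477 to 0.569 in AIN and above that in AIN_VdrKO, at 0.633 to 1.03. Espn to Vil1 was 0.0139 to 0.0607 in AIN. It lay above that in NWD1Ca (0.0698 to 0.0837), NWD1VitD (0.0654 to 0.129) and AINlowVitD (0.07 to 0.118). The other groups overlapped AIN in the Ezr and Espn ratios.

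Between libraries of the same group, most of these genes moved as a block. Pearson correlations of log2 CPM were taken over 21 libraries after removal of the group means. The libraries share their scaling and the removed means, so the values describe and do not test. Vil1 correlated with Eps8 at 0.95, Ezr at 0.94, Krt20 at 0.94, Pls1 at 0.92 and Myo1a at 0.92, and Myo1a with Eps8 at 0.955. Krt8 followed the block at 0.61 to 0.79. Krt18 and Krt19 stood outside it, and Espn followed only part of it, from 0.22 with Myo1a to 0.60 with Pls1 and 0.62 with Krt20. Espn was closest to Krt18 at 0.73, and Krt19 to Krt8 at 0.55. Krt18 and Krt19 did not follow each other, at -0.08.

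**Figure D4:**
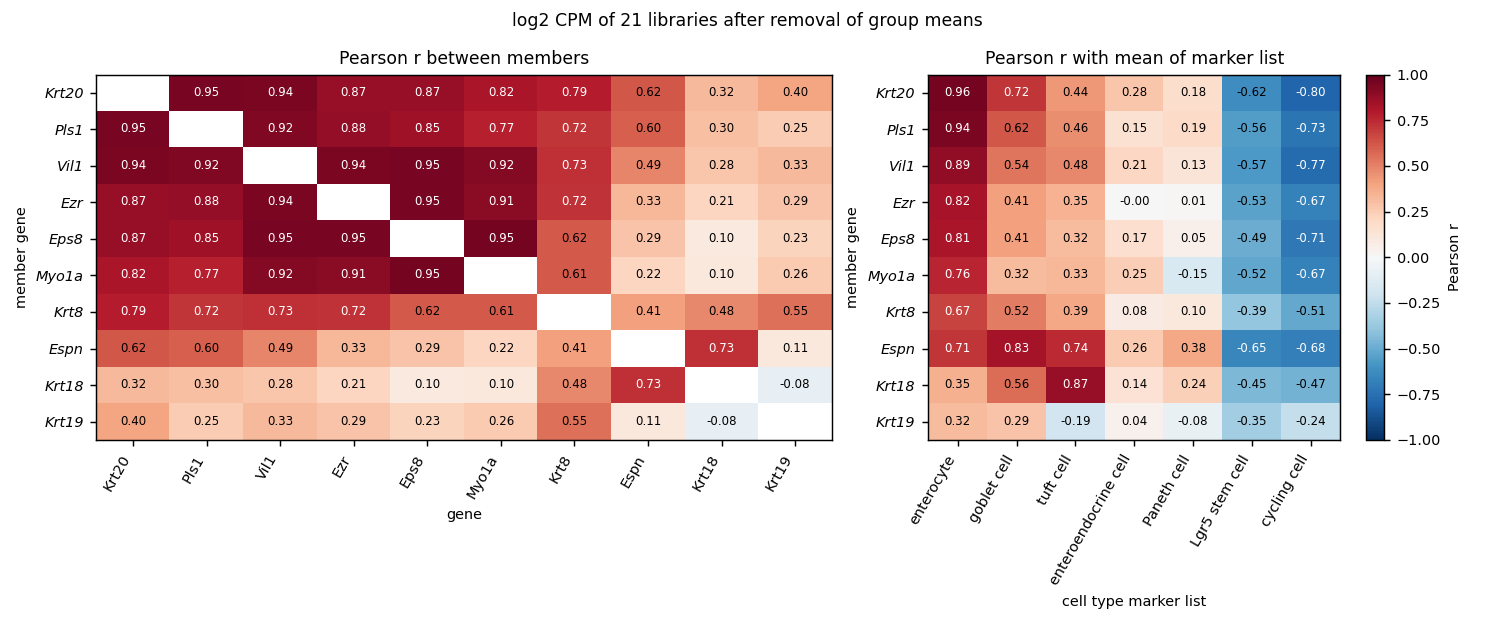
Pearson r of log2 CPM over 21 libraries with group means removed, between the genes on the left and with the mean of 7 marker lists on the right, coloured from -1 (blue) to 1 (red). Krt20, Pls1, Vil1, Ezr, Eps8 and Myo1a form a block, Krt18 is highest with tuft cell markers at 0.87, and Krt19 is low with all lists.

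The block followed the enterocyte markers, a list that holds none of the 10 genes. Krt20 correlated with their mean at 0.96, Pls1 at 0.94, Vil1 at 0.89, Ezr at 0.82, Eps8 at 0.81 and Myo1a at 0.76. With the cycling cell markers all 10 were negative, from -0.80 for Krt20 to -0.24 for Krt19. Krt18 was highest with the tuft cell markers at 0.87 and stood at 0.35 with the enterocyte markers. NWD2 2, with 3438 CPM of Krt18 against 1004 and 932 CPM in NWD2 1 and NWD2 3, also had the highest tuft cell sum, 3770 CPM, and the highest leukocyte marker sum, 71.9 CPM against 12 and 13.3 CPM in the other NWD2 libraries. Krt18 correlated with the leukocyte markers at 0.56. Espn was highest with goblet (0.83) and tuft cell markers (0.74), and stood at 0.71 with the enterocyte markers, near Myo1a. Krt20 stood at 0.72 with the goblet cell markers. Krt19 reached no more than 0.32, with the enterocyte markers, and was at -0.35 with the Lgr5 stem cell markers, with which all 10 genes were negative, down to -0.65 for Espn.

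**Figure D5:**
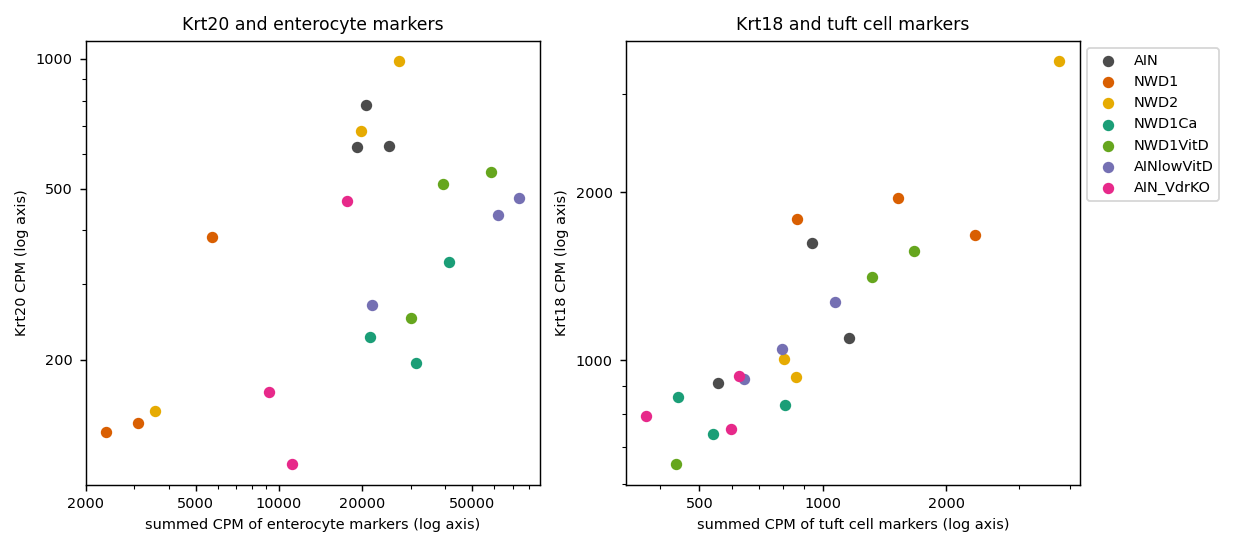
Krt20 CPM against the summed CPM of 20 enterocyte markers, and Krt18 CPM against that of 9 tuft cell markers, with 1 point a library on log axes. NWD2 2 is the highest point of the tuft cell panel, at 3770 CPM of markers and 3438 CPM of Krt18, and the 3 NWD1 libraries, with 2370 to 5700 CPM of enterocyte markers, have 136 to 385.8 CPM of Krt20.

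For each gene the 3 most similar genes of the whole table by the same measure were taken, among genes whose log2 CPM averaged 2 or more. The genes nearest to Krt20 included Cyp4f16 (0.98) and Cx3cl1 (0.98). Vil1 was nearest to Slc41a2 (0.98), the glucose transporter gene Slc5a1 (0.97) and Pcyt1a (0.96). Slc5a1 is itself in the enterocyte list. Myo1a was nearest to Pfkp (0.97), Pls1 to Gyk (0.96), Eps8 to Sec24d (0.97) and Ezr to P4hb (0.95). Krt18 was nearest to the tubulin gene Tuba1a (0.96), Matk (0.95) and Krt23 (0.94), another type I keratin. Espn was nearest to Ms4a8a (0.95) and Krt8 to Tapbp (0.92). Krt19 had the loosest neighbours, Pccb (0.86), Casp1 (0.845) and Slc39a5 (0.84).

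Of the 73 related genes tested in 5 lists, 7 rose (9.59%, and 7.44% of all genes) and 4 fell (5.48%, and 5.09% of all genes) in AIN_VdrKO against AIN. Of 30 tested genes of the actin core and membrane link that are not among the 10, 2 rose and 1 fell, with a median of -0.34. The fall was Eps8l2, an EPS8 relative, at -1.63 ± 0.40 (adjusted p = 0.0111). Of 12 keratin anchors 1 rose and 1 fell, the latter the plakophilin gene Pkp3 at -1.56 ± 0.34 (adjusted p = 0.00577). Of 6 genes of the intermicrovillar adhesion complex, which ties the tips of microvilli together, 1 fell with a median of -1.03, and of 8 other keratins none passed the test. Among 17 transcription factors of enterocyte differentiation 4 rose and 1 fell, including Klf5 at 2.36 ± 0.48 (adjusted p = 0.00369).

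Elsewhere the same lists gave Myo5b, a motor of apical vesicle traffic, as the single gene called in NWD1 against AIN (-1.79 ± 0.35, adjusted p = 0.0274), of 73 tested over the 5 lists. In AINlowVitD against AIN 8 rose (11%, and 15.1% of all genes) and 12 fell (16.4%, and 16.3% of all genes) over the 5 lists. Krt10 was at 2.1 ± 0.43 (adjusted p = 0.00178), Klf5 at 1.93 ± 0.41 (adjusted p = 0.00221) and Pkp3 at -1.86 ± 0.33 (adjusted p = 7e-04). NWD1Ca against NWD1 gave 9 higher (12.3%, and 15.6% of all genes) and 14 lower (19.2%, and 14.9%). NWD1VitD against NWD1 gave 15 higher (20.5%, and 19.9%) and 12 lower (16.4%, and 20.6%). Both cross the library sets.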

How the data were processed

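The authors deposited unnormalised counts of reads for 37310 genes and for 92 spike-in RNAs, and TPM values that rescale those counts by 1 length per gene. The submitters' processing notes name build mm9, the aligner STAR (2.4.2a), HTSeq (0.6.1) and edgeR; no source used here gives their settings or the annotation. Per the labels' protocols, RNA of sorted cells went through SMART-Seq v4 and Nextera XT, which does not mark strand, so reads of overlapping antisense genes cannot be told apart. The labels describe each library as a mouse sample. P-values measure the spread between libraries.

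The main test was the two-sided quasi-likelihood test of edgeR 4.0.16 (R 4.3.3) on the authors' counts, scaled by TMM, with 21 libraries, 7 group means and a sex term, with Benjamini-Hochberg adjustment over 16050 genes that passed filterByExpr and a threshold of 0.05. The residual degrees of freedom were 13. A called gene is one past that threshold. CPM uses TMM-scaled library sizes. DESeq2 1.42.0 on counts and limma 3.58.1 on log2(TPM + 1), or + 0.1, were alternatives, as were other scalings, no filter, and leaving out libraries. The log2(TPM + 1) scale understates changes of low genes. Scripts were tested on simulated counts. No replicate pair was a repeated library.

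The 10 genes are all named, with genes from the 3 most similar to each. From lists of related genes, those past the threshold with the 2 largest rises and falls of a comparison could be named, and some are not reported here. The members and lists were chosen with earlier results of these data known.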

Additional observations from a re-analysis of the deposited data

How the results depend on the processing

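The count of called genes among the 10 depended on the processing in 7 of the 9 comparisons. The share of all genes called under the same setting stands in brackets. DESeq2 called 2 in NWD1 against AIN (5.43%) and 1 in AIN_VdrKO against AINlowVitD (7.28%). Without the filter on low counts the counts were 3 in NWD1 against AIN (3.47%), 3 in NWD2 against NWD1 (3.02%), 2 in AINlowVitD against AIN (17.6%), 1 in NWD1Ca against NWD1 (18%) and 2 in NWD1VitD against NWD1 (23.2%). With library totals they were 5 in AINlowVitD against AIN (40%), 2 in NWD1Ca against NWD1 (41%) and 3 in NWD1VitD against NWD1 (50.4%). limma on log2(TPM + 1) gave 9 (50.5%), 6 (56.6%) and 7 (64.7%) in the same 3 comparisons and 1 in AIN_VdrKO against AIN (8.41%), and log2(TPM + 0.1) gave the same counts (53.9%, 56.8%, 65.4% and 8.32%). With DESeq2 size factors AINlowVitD against AIN had 0 (30.7%), and with only the 2 groups compared it had 0 (32.1%), AIN_VdrKO against AIN 1 (6.19%) and NWD1Ca against NWD1 1 (38.9%). Leaving out AIN 1, AIN 2 and NWD1 1 together kept AIN 3 as the only AIN library, so no counts are given for that setting. Without the sex term NWD1Ca against NWD1 (39.5%) and AIN_VdrKO against AINlowVitD (8.19%) each had 1. With an offset for gene length NWD1Ca (32.1%) and NWD1VitD (42.5%) against NWD1 each had 1, and AIN_VdrKO against AIN had 2 (12.8%), having lost Myo1a. Leaving out 1 library at a time gave 0 to 1 in NWD1 against AIN (1.66% without NWD1 3, where the 1 call was made), 0 to 1 in AINlowVitD against AIN (19.6% to 27.8% where 0 were called) and 1 to 4 in AIN_VdrKO against AIN (6.07% to 10.9% where 1 or 4 were called). The cause of these shifts was not tested.

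Same-numbered libraries correlated at -0.191 to 0.409 in their deviations from group means, with 9 of 27 over 0.1, so the numbers were not taken to pair the libraries. With the replicate block 1 gene was called in AINlowVitD against AIN, 3 in AIN_VdrKO against AIN and 0 in the other comparisons, as without it.

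Of 90 pairs of a gene and a comparison, limma on log2(TPM + 1) reversed 27, 4 of them with a call, and library totals 18, none with a call. Of the fold changes given above, those that reversed had passed no test. Espn in NWD1 against AIN became 0.20 with library totals, 0.40 and 0.42 with limma, 0.53 without AIN 1, AIN 2 and NWD1 1, and -0.49 to 0.34 over single libraries left out. In AINlowVitD against AIN, Espn was -0.43 and -0.46 with limma, Krt18 was 0.14 without AIN 1, AIN 2 and NWD1 1 and ranged from -0.34 to 0.32 with 1 library left out, and Eps8 from -0.65 to 0.24. In AIN_VdrKO against AIN, Espn was 0.30 without AIN 1, AIN 2 and NWD1 1 and -0.69 to 0.17 with 1 left out, and Eps8 -0.56 to 0.35. Krt20 in NWD1VitD against NWD1 was -0.52 with both limma fits, Krt18 in NWD2 against AIN was -0.30 without NWD2 2 and up to 0.96 without another library, and Krt19 in AIN_VdrKO against AINlowVitD was 0.02 with both limma fits.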
